A study of Mus musculus with 6 samples.

Results

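The miR-200 family was described in the small RNA of mouse pancreatic islets, small bodies of endocrine cells within the pancreas. Its members were the rows of the read-count table that carry the names of the mature products of the cluster of Mir200b, Mir200a and Mir429 and the cluster of Mir200c and Mir141, 9 of 1011 rows in all. The choice used names and no measured value, though earlier results of these data were known when it was made. Islets came from mice on the diet labelled HFD, with 3 libraries, and from mice on the diet labelled NCD, with 3 libraries. The sources used here do not give strain, sex, age or time on the diet, nor say whether a library holds 1 animal or a pool. The p-values therefore measure the spread between these libraries.

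The miR-200 family is a hallmark of epithelial cells. Its members repress Zeb1 and Zeb2, transcription factors that silence E-cadherin and other epithelial genes, and these factors in turn repress the miR-200 genes. Islet cells are of epithelial origin, and in mouse beta cells a raised level of the family has been linked to apoptosis under stress. A miRNA recognises its targets mainly through its seed, bases 2 to 8 counted from the 5′ end, so that members with the same seed share many predicted targets.

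The mature sequences below show which members share a seed, and each was the same in the deposited table as in RefSeq (GRCm38.p6). The seed is in capitals.
mmu-miR-200b-3p: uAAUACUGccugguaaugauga
mmu-miR-200c-3p: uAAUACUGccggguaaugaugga
mmu-miR-429-3p: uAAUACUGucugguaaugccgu
mmu-miR-200a-3p: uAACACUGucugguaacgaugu
mmu-miR-141-3p: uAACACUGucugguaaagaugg
mmu-miR-200b-5p: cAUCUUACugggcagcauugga
mmu-miR-200a-5p: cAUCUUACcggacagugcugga
mmu-miR-200c-5p: cGUCUUACccagcaguguuugg
mmu-miR-141-5p: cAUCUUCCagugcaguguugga

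The 3p arms, from the 3′ side of the hairpins, fell into 2 seed groups. miR-200b-3p, miR-200c-3p and miR-429-3p share one seed, and miR-200a-3p and miR-141-3p share the other. The seeds differ at 1 base, written C4U from miR-200a-3p to miR-200b-3p with positions counted from the 5′ end. No other row of the table carried either 3p seed. Among the 5p arms, miR-200a-5p and miR-200b-5p share a seed, miR-200c-5p has its own, and miR-141-5p shares its seed with miR-6769b-3p, which is no member.

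Each cluster holds members of both seed groups. In the first cluster, on the minus strand of chromosome 4, the hairpins lie at chr4:156055681-156055750 (Mir200b), chr4:156054896-156054985 (Mir200a) and chr4:156053905-156053987 (Mir429). All 3 lie inside introns of the protein-coding gene Ttll10, and Mir429 also overlaps an exon of the non-coding transcript Gm13648. In the second cluster, on the minus strand of chromosome 6, they lie at chr6:124718322-124718390 (Mir200c) and chr6:124717914-124717985 (Mir141), in an intron of the non-coding gene Gm15884. Mir141 overlaps an exon of a further transcript, Gm29008. The gaps between hairpins were 695 and 908 bases in the first cluster and 336 bases in the second.

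**Figure D1:**
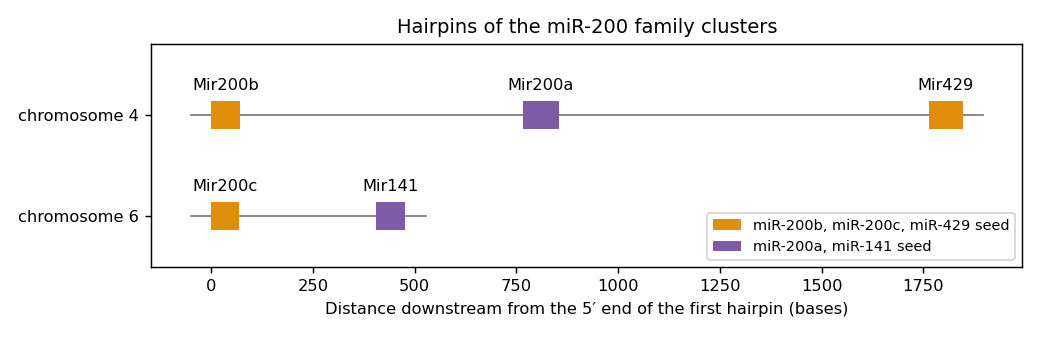
Position of the 5 hairpins along their clusters, as distance in bases downstream from the 5′ end of the first hairpin, with chromosome 4 above chromosome 6. Colours mark the seed of the 3p arm. Each cluster begins with a hairpin of the miR-200b seed, followed by one of the miR-200a seed, and Mir429 starts 1763 bases after the start of Mir200b.

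Libraries held 7166712 to 11172255 counts. Of all rows, 406 passed the filter on low counts. Levels are given in CPM, the reads of a miRNA relative to the library total scaled by a TMM factor, which corrects for the share of reads taken up by a few abundant miRNAs. The TMM factor of NCD replicate 3 was 1.73, while those of the other 5 libraries lay between 0.840 and 0.995. The endocrine markers miR-375-3p, miR-7a-5p and miR-184-3p were all present, at a summed 445633 to 544927 CPM under HFD and 260073 to 598651 CPM under NCD. With TMM factors the lowest value was in NCD replicate 3, whose large factor lowers its CPM. On library totals NCD replicate 3 was not the lowest and lay above HFD replicate 1. In such bulk samples fewer cells of a type and less RNA per cell cannot be told apart.

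The family as a whole took 2.40%, 2.32% and 3.43% of all counts in HFD replicates 1, 2 and 3, and 2.11%, 2.42% and 4.05% in NCD replicates 1, 2 and 3. In CPM, the sum over the 9 members was 30206 ± 3740 under HFD and 24479 ± 2800 under NCD (SD, n = 3 each). HFD values of 28564, 27567 and 34486 CPM stood against NCD values of 22383, 27659 and 23396 CPM, so the diets overlapped.

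The order of the levels was led by 3 of the 3p arms. Over the 6 libraries miR-200b-3p averaged 10365 ± 1988 CPM, miR-200a-3p 9330 ± 2995 CPM and miR-200c-3p 5939 ± 1690 CPM (SD, n = 6), and neighbours in this order overlapped. The order at the top was not the same in each diet: miR-200a-3p had the highest mean under HFD, at 11661 CPM against 11367 CPM for miR-200b-3p, and miR-200b-3p under NCD. By read count, miR-200b-3p stood between rank 7 and rank 10 of all miRNAs in each library. miR-200a-5p came next with 986 ± 237 CPM, below the lowest value of miR-200c-3p. miR-429-3p, with 320 ± 79.5 CPM, and miR-141-3p, with 266 ± 79.7 CPM, overlapped, although miR-429-3p was the higher in 6 of 6 libraries. The remaining 5p arms were well separated, with 114 ± 22.7 CPM for miR-200b-5p, 20.9 ± 7.26 CPM for miR-141-5p and 1.02 ± 0.31 CPM for miR-200c-5p. The members are 22 or 23 bases long, so the order per length is the same.

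The first comparison asked whether members differ between islets on HFD and on NCD. None of the members passed the test between diets. With edgeR's quasi-likelihood test 0 of the 8 tested members had an adjusted p under 0.05, beside 1 of 406 miRNAs, or 0.246%. DESeq2 and limma-voom also called 0 members. At an unadjusted p under 0.05 there was 1 member, miR-200a-3p, beside 4.93% of all tested miRNAs with such a p and a positive fold change and 10.1% in either direction. Of the 8 members, 6 had a positive log2 fold change, beside 51.5% of all tested miRNAs, and the median was 0.28, against 0.02 for all. The ninth member, miR-200c-5p, did not pass the filter.

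mmu-miR-200a-3p, the abundant product of the middle hairpin of the chromosome 4 cluster, had the largest value among the tested members. It was at 12954, 9723 and 12307 CPM in HFD replicates 1, 2 and 3, against 5696, 9037 and 6264 CPM in NCD replicates 1, 2 and 3. With TMM factors the lowest HFD value was still above the highest NCD value, though HFD replicate 2 and NCD replicate 2 were close. On library totals the diets overlapped. NCD replicate 3 then lay above HFD replicate 2, with 88090 of 8121430 counts against 77032 of 9431818. The mean level of miR-200a-3p was 11661 ± 1709 CPM under HFD and 6999 ± 1788 CPM under NCD (SD, n = 3 each). The log2 fold change was 0.74 ± 0.31 (SE), with an adjusted p of 0.480 by edgeR's quasi-likelihood method. The adjusted p ran from 0.229 to 0.886 over the alternative settings.

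mmu-miR-200a-5p, the other arm of the same hairpin, showed the same separation at a lower level. HFD libraries held 1068, 1310 and 1111 CPM, and NCD libraries 843, 966 and 620 CPM. Its log2 fold change was 0.52 ± 0.30 (SE), with an edgeR adjusted p of 0.572. With TMM factors, these were the 2 members whose diets did not overlap, both with HFD above NCD. That pattern was seen in 10.3% of all tested miRNAs. On library totals miR-200a-5p overlapped too. NCD replicate 3 then lay above HFD replicate 1, with 8725 of 8121430 counts against 9586 of 10678638.

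mmu-miR-200b-3p, from the first hairpin of the same cluster, was at 9715, 11493 and 12892 CPM under HFD and at 9279, 11489 and 7325 CPM under NCD. The diets overlapped, and with TMM factors the lowest level was that of NCD replicate 3. On library totals NCD replicate 3 lay above HFD replicate 1, with 103023 of 8121430 counts against 87228 of 10678638. The log2 fold change was 0.28 ± 0.31 (SE; edgeR adjusted p = 0.718), and leaving out 1 library gave 0.12 (without NCD replicate 3) to 0.44 (without NCD replicate 2). Its 5p arm, miR-200b-5p, went the other way, with 84.1, 114.2 and 97.8 CPM under HFD and 151, 113.9 and 122.9 CPM under NCD. HFD replicate 2 lay just above NCD replicate 2, and the log2 fold change was -0.39 ± 0.31 (SE; edgeR adjusted p = 0.627).

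mmu-miR-429-3p, which ends the chromosome 4 cluster and carries the miR-200b seed, was at 386, 248 and 417 CPM under HFD and at 211, 346 and 313 CPM under NCD. HFD replicates 1 and 3 lay above all NCD libraries and HFD replicate 2 below NCD replicates 2 and 3. The log2 fold change was 0.27 ± 0.33 (SE; edgeR adjusted p = 0.747), and leaving out 1 library gave 0.025 (without NCD replicate 1) to 0.42 (without HFD replicate 2).

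In the chromosome 6 cluster, mmu-miR-200c-3p, which differs from miR-200b-3p by U11G and A22G within the first 22 bases, was at 4003, 4459 and 7248 CPM under HFD and at 6023, 5439 and 8463 CPM under NCD. HFD replicates 1 and 2 lay below all NCD libraries, and HFD replicate 3 lay among them. The log2 fold change was -0.34 ± 0.33 (SE; edgeR adjusted p = 0.678), and it was -0.14 without NCD replicate 3 and -0.69 without HFD replicate 3.

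Its neighbour mmu-miR-141-3p was at 333, 205 and 380 CPM under HFD and at 164, 253 and 259 CPM under NCD, with HFD replicate 2 between the NCD values. The log2 fold change was 0.44 ± 0.33 (SE; edgeR adjusted p = 0.627), and it was 0.19 without NCD replicate 1 and 0.23 without HFD replicate 3. miR-141-5p was at 22.3, 13.3 and 31.7 CPM under HFD and at 16.0, 15.6 and 26.7 CPM under NCD, a log2 fold change of 0.20 ± 0.41 (SE; edgeR adjusted p = 0.889) that ran from -0.17 without HFD replicate 3 to 0.51 without NCD replicate 3. miR-200c-5p had 5, 8 and 15 reads in HFD and 7, 8 and 19 reads in NCD libraries, too few to compare the diets.

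**Figure D2:**
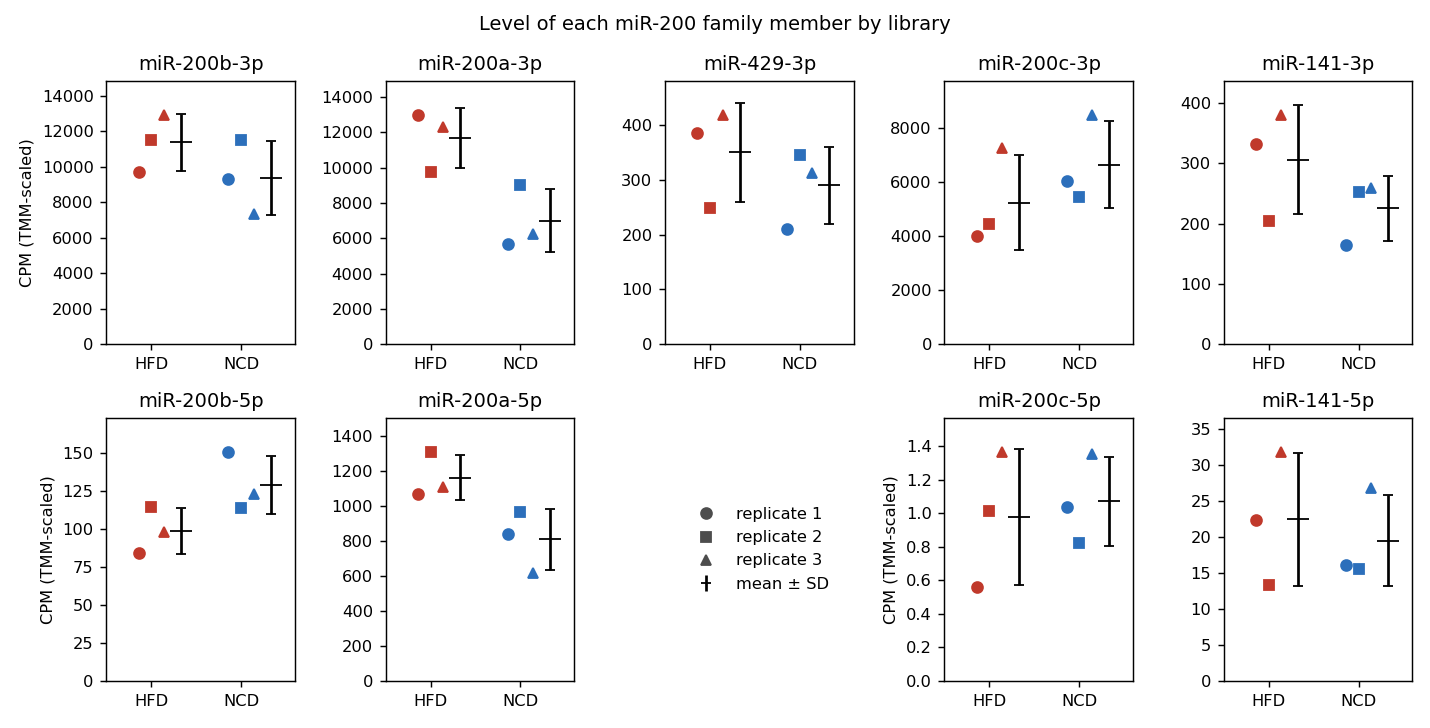
Level of each member in CPM (TMM-scaled, linear axes from 0), by diet, with 1 point per library and the mean ± SD beside it. With this scaling the diets do not overlap for miR-200a-3p (9723 to 12954 CPM under HFD and 5696 to 9037 CPM under NCD) and miR-200a-5p. They overlap for the other 7 members.

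Scaling moved these values together. With library totals only, the median log2 fold change of all tested miRNAs was -0.37, against 0.02 with TMM factors, and the values of miR-200b-3p and miR-429-3p turned to -0.037 and -0.14 and that of miR-141-5p to -0.26. miR-200a-3p was then at 0.38, miR-200a-5p at 0.19, miR-141-3p at 0.01, miR-200b-5p at -0.78 and miR-200c-3p at -0.81. Relative to the median of all miRNAs, the members kept the sign they had with TMM factors, with 0.74 for miR-200a-3p, 0.33 for miR-200b-3p, 0.23 for miR-429-3p, 0.38 for miR-141-3p and -0.44 for miR-200c-3p.

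**Figure D3:**
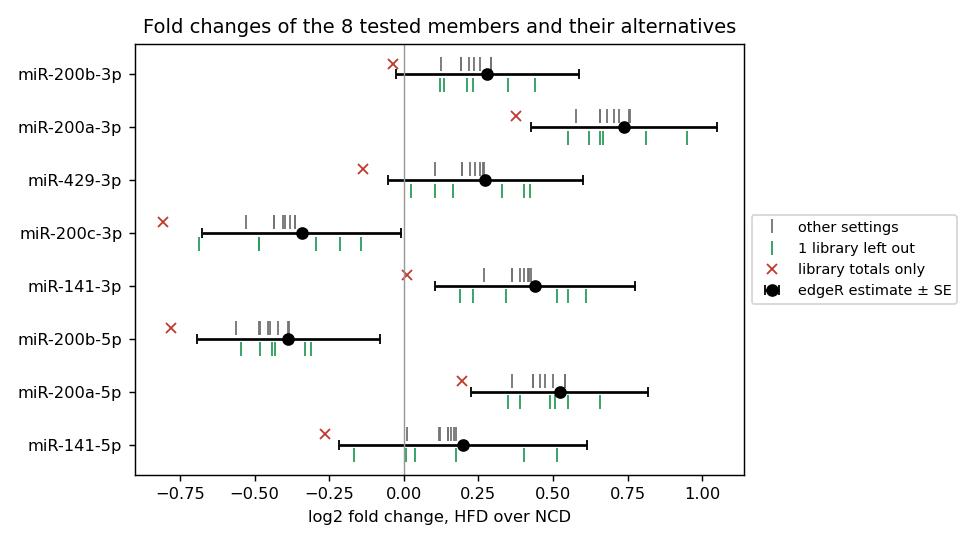
Log2 fold change of the 8 tested members, HFD over NCD, as the edgeR estimate ± SE (black), with 1 library left out (green), with library totals as the only scaling (red crosses) and under the other settings (grey). miR-200a-3p stays between 0.38 and 0.95 and miR-200c-3p between -0.81 and -0.14 over all of them.

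The second comparison set the clusters against each other. Ratios of reads within a library need no scaling factor, which removes the dependence described above. Reads of the chromosome 4 cluster were 5.55, 4.89 and 3.50 times those of the chromosome 6 cluster in HFD replicates 1, 2 and 3, and 2.61, 3.85 and 1.67 times in NCD replicates 1, 2 and 3. HFD replicate 3 and NCD replicate 2 overlapped, and the other libraries were separated by diet. On the log2 scale the mean ratio was 2.19 ± 0.34 under HFD and 1.36 ± 0.60 under NCD (SD, n = 3 each), a difference of 0.83. The two-sided exact permutation test gave p = 0.2, and 0.4 after adjustment over the 10 ratios tested, where 3 against 3 cannot go below 0.1. Without NCD replicate 3 the difference was 0.53.

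The cluster sums behind this ratio were 24640 ± 2004 CPM under HFD and 17592 ± 3852 CPM under NCD for the chromosome 4 cluster. For the chromosome 6 cluster they were 5566 ± 1822 CPM under HFD and 6887 ± 1633 CPM under NCD (SD, n = 3 each). With TMM factors the highest sum of the second cluster, 8751 CPM, and the lowest of the first, 14645 CPM, were both in NCD replicate 3. As a share of all counts, the first cluster took 2.04%, 1.92% and 2.67% in HFD replicates 1, 2 and 3. It took 1.52%, 1.92% and 2.54% in NCD replicates 1, 2 and 3. By this share its diets overlapped, and its lowest value was in NCD replicate 1. The second cluster was highest in NCD replicate 3 by share too, at 1.52%.

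The third comparison set the seed groups against each other, across the clusters. The reads of miR-200b-3p, miR-200c-3p and miR-429-3p were 1.06, 1.63 and 1.62 times those of miR-200a-3p and miR-141-3p in HFD replicates 1, 2 and 3, and 2.65, 1.86 and 2.47 times in NCD replicates 1, 2 and 3. Each HFD library lay below each NCD library. The mean log2 ratio was 0.50 ± 0.36 under HFD and 1.20 ± 0.27 under NCD (SD, n = 3 each), a difference of -0.70. The two-sided exact permutation test gave p = 0.1, the smallest it can give here, and 0.4 after adjustment over the 10 ratios.

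In CPM, the group of miR-200a-3p and miR-141-3p was at 13286, 9928 and 12687 under HFD and 5860, 9290 and 6523 under NCD, without overlap. As a share of all counts the diets overlapped for this group. The shares were 1.12%, 0.834% and 1.26% under HFD and 0.551%, 0.811% and 1.13% under NCD. The other group was at 14104, 16200 and 20558 CPM under HFD and at 15512, 17273 and 16102 CPM under NCD, with overlap. The first sum was nearly all miR-200a-3p, since miR-141-3p had 2.11 to 4.14 reads per 100 reads of miR-200a-3p.

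Within each cluster, the member with the miR-200a seed was set against its neighbour with the miR-200b seed. Reads of miR-200a-3p per read of miR-200b-3p were 1.33, 0.846 and 0.955 in HFD replicates 1, 2 and 3, and 0.614, 0.787 and 0.855 in NCD replicates 1, 2 and 3. HFD replicate 2 lay just below NCD replicate 3. The mean log2 ratio was 0.04 ± 0.34 under HFD and -0.43 ± 0.25 under NCD, a difference of 0.46 (SD, n = 3 each; two-sided exact permutation p = 0.2, adjusted 0.4) that was 0.27 without HFD replicate 1.

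Reads of miR-141-3p per read of miR-200c-3p were 0.0831, 0.0460 and 0.0524 in HFD replicates 1, 2 and 3, and 0.0272, 0.0465 and 0.0306 in NCD replicates 1, 2 and 3. HFD replicate 2 and NCD replicate 2 were nearly equal and the others separated by diet. The difference of the mean log2 ratios was 0.79, with -4.09 ± 0.45 under HFD and -4.88 ± 0.41 under NCD (SD, n = 3 each; two-sided exact permutation p = 0.2, adjusted 0.4).

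By contrast, miR-429-3p and miR-200b-3p, which share a cluster and a seed, had a mean log2 ratio of -5.05 ± 0.45 under HFD and -5.02 ± 0.46 under NCD (SD, n = 3 each). The difference was -0.026 (two-sided exact permutation p = 0.9, adjusted 0.9), and without single libraries it ran from -0.24 to 0.22. The ratio varied 1.98-fold over the libraries, so the values do not show that the members behave alike.

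**Figure D4:**
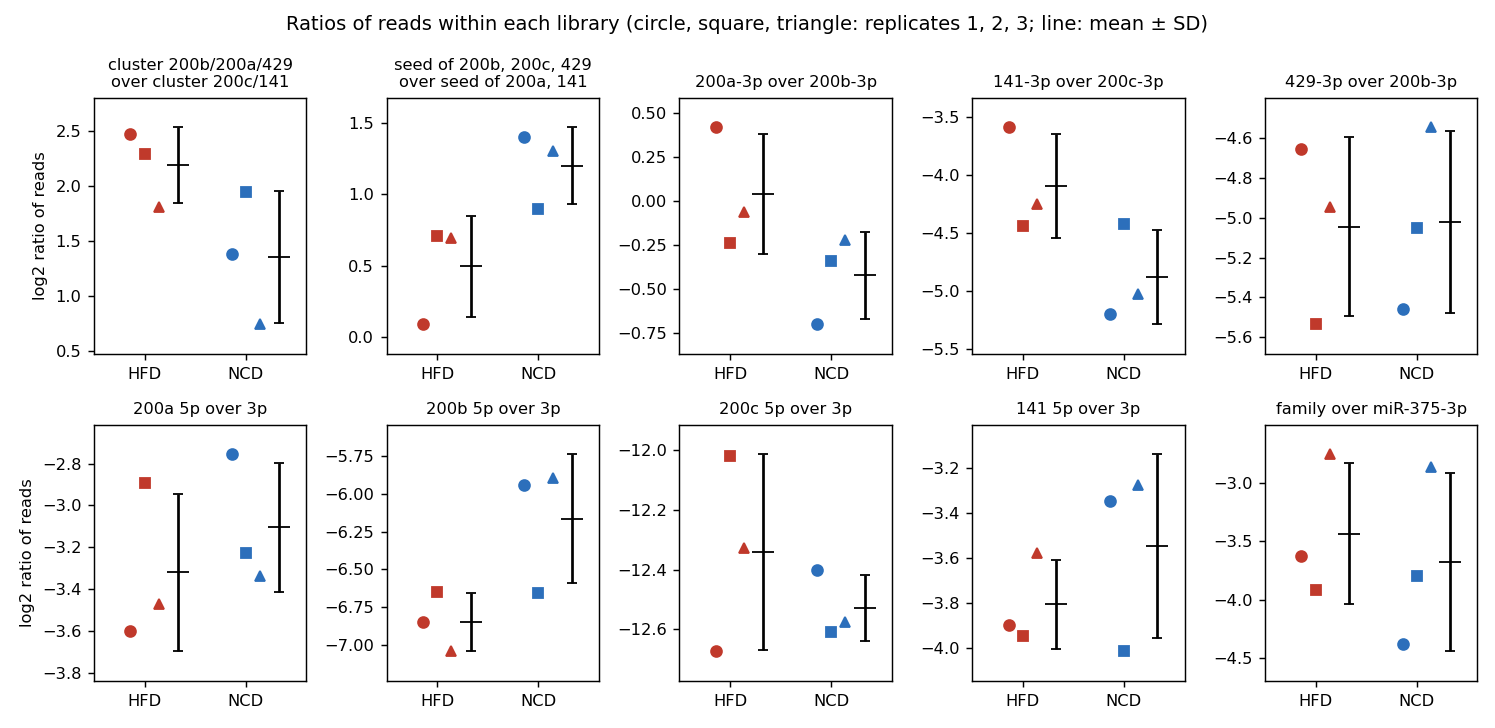
Log2 ratio of reads within each library for the 10 ratios tested, by diet, with 1 point per library and the mean ± SD. The ratio of the miR-200b, miR-200c and miR-429 seed group to the miR-200a and miR-141 seed group separates the diets, at 0.50 ± 0.36 under HFD and 1.20 ± 0.27 under NCD, and the other 9 ratios overlap.

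The sources used here do not say how reads that match several members were counted. miR-141-3p differs from miR-200a-3p by C17A and U22G, and miR-200b-3p and miR-200c-3p are as close, so such pairs can exchange reads. The part of such reads in these ratios was not tested.

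The fourth comparison concerned the arms, since both arms of a hairpin come from 1 precursor. The hairpins of miR-200a and miR-200c are printed here because they had the highest and the lowest mean 5p shares, with the mature arms in capitals.
Mir200a: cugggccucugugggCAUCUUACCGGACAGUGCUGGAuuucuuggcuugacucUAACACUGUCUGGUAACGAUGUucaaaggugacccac
Mir200c: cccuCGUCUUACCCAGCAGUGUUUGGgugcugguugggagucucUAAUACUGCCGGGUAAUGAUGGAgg

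The 3p arm was the major product of the 4 hairpins with both arms in the table, and the size of the minor arm differed widely. miR-200a-5p made up 7.61%, 11.9% and 8.28% of the miR-200a reads in HFD libraries 1, 2 and 3, and 12.9%, 9.66% and 9.01% in NCD replicates 1, 2 and 3. miR-141-5p made up 6.28%, 6.07% and 7.71% of the miR-141 reads under HFD and 8.90%, 5.80% and 9.34% in NCD libraries. miR-200c-5p was almost absent, at 0.0139% to 0.0226% under HFD and 0.0151% to 0.0172% in NCD libraries. In HFD replicate 1 its 5 reads gave a 95% exact binomial interval of 0.00452% to 0.0325%, which covers counting error only.

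miR-200b-5p made up 0.858%, 0.984% and 0.753% of the miR-200b reads in HFD libraries 1, 2 and 3, and 1.598%, 0.981% and 1.65% in NCD replicates 1, 2 and 3. NCD replicates 1 and 3 stood above all HFD libraries, while NCD replicate 2 was level with HFD replicate 2. On the log2 scale, 5p reads over 3p reads averaged -6.85 ± 0.19 under HFD and -6.17 ± 0.43 under NCD (SD, n = 3 each). The difference of -0.68 gave p = 0.2 in the two-sided exact permutation test, adjusted 0.4, and was -0.93 without NCD replicate 2.

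For the other hairpins the difference in the log2 ratio was smaller than the larger of the SDs of the diets. It was -0.21 for miR-200a, -0.26 for miR-141 and 0.19 for miR-200c, with two-sided exact permutation p-values of 0.5, 0.4 and 0.5, and 0.625 each after adjustment. Leaving out 1 library gave -0.43 (without HFD replicate 2) to -0.040 (without NCD replicate 1) for miR-200a. It gave -0.50 (without NCD replicate 2) to -0.12 (without NCD replicate 3) for miR-141, and 0.027 (without HFD replicate 2) to 0.35 (without HFD replicate 1) for miR-200c. The miR-200c ratio rests on too few 5p reads to compare the diets. Its difference was 0.27 with 5 added to each count in place of 0.5. The 5p share of miR-200a overlapped between the diets, while the TMM-scaled levels of both of its arms did not overlap.

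**Figure D5:**
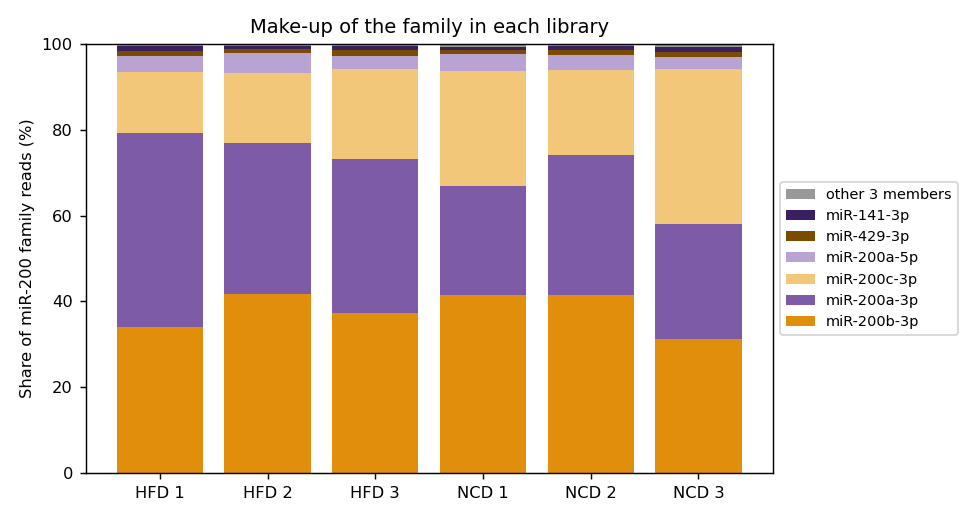
Share of the reads of the 9 members taken by each member, in percent, stacked for each library. miR-200a-3p takes 35.3% to 45.3% of the family under HFD and 25.4% to 32.7% in NCD libraries, and miR-200c-3p 14.0% to 21.0% under HFD and 19.7% to 36.2% in NCD libraries.

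The make-up of the family followed from these levels. miR-200a-3p took 38.8% ± 5.70 of the family's reads under HFD and 28.3% ± 3.85 under NCD, and miR-200c-3p took 17.1% ± 3.59 under HFD and 27.6% ± 8.28 under NCD (SD, n = 3 each). The share of miR-200b-3p was 37.7% ± 3.85 under HFD and 38.1% ± 5.88 under NCD. The highest share of miR-200c-3p, 36.2%, was in NCD replicate 3, where it passed miR-200b-3p as the most abundant member.

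Set against the endocrine marker miR-375-3p, which restrains insulin secretion, the family had 0.0808, 0.0661 and 0.148 reads per read of miR-375-3p in HFD replicates 1, 2 and 3, and 0.0480, 0.0720 and 0.137 in NCD replicates 1, 2 and 3. The third replicate was the highest in both diets. The difference of the mean log2 ratios was 0.25 (two-sided exact permutation p = 0.7, adjusted 0.778), and it was -0.094 without HFD replicate 3 and -0.10 without NCD replicate 1.

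Other epithelial cells of the pancreas also carry the family, so markers of other cells were read beside it. The 4 acinar markers summed to 20.2, 139 and 205 CPM in HFD replicates 1, 2 and 3, and to 111, 173 and 418 CPM in NCD replicates 1, 2 and 3. They were lowest in HFD replicate 1, where miR-216a-5p and miR-216a-3p had 0 reads, and highest in NCD replicate 3. miR-200c-3p was also lowest in HFD replicate 1 and highest in NCD replicate 3, and the part of acinar RNA in its values was not tested. The 3 acinar markers tested had negative log2 fold changes and 0 passed.

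The 2 endothelial markers summed to 300 to 434 CPM under HFD and 346 to 748 CPM in NCD libraries. The 4 leukocyte markers summed to 3.73 to 9.13 CPM under HFD and 8.20 to 28.5 CPM in NCD libraries. The 2 erythroid markers summed to 41.3 to 134 CPM under HFD and 33.4 to 127 CPM in NCD libraries, with miR-144-3p at 0 reads in HFD replicate 2 and NCD replicate 2. The 5 markers of fibroblasts and smooth muscle, led by miR-143-3p, summed to 1329 to 4976 CPM under HFD and 1515 to 2978 CPM in NCD libraries. The 4 liver and muscle markers summed to 48.3 to 130 CPM under HFD and 127 to 885 CPM in NCD libraries, with the highest value in NCD replicate 1, where miR-200a-3p was lowest. In HFD replicate 3, miR-133a-3p had 0 reads. Log2 fold changes were negative for the 2 endothelial, 2 leukocyte, 1 erythroid and 3 liver and muscle markers tested. Among the 5 markers of fibroblasts and smooth muscle 4 were negative and 1 positive, beside 197 negative of all 406 tested miRNAs. Of these markers 0 passed. At an unadjusted edgeR p under 0.05 there were 2, both of the liver and muscle list, beside 10.1% of all tested miRNAs. The part of these cells in the members' values was not tested.

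A list of 15 other miRNAs linked to epithelial cells or to the epithelial-mesenchymal transition gives a point of comparison. Of 14 tested, 0 passed with edgeR in either direction, 8 had positive and 6 negative log2 fold changes, and the median was 0.028. The most abundant were miR-30a-5p, with a log2 fold change of 0.39 ± 0.30 (SE), miR-183-5p, with 0.0078 ± 0.37, and miR-182-5p, with 0.18 ± 0.32, and their edgeR adjusted p-values were 0.627, 0.996 and 0.861. miR-203-3p, another epithelial miRNA that acts against the transition, was at 225, 180 and 264 CPM under HFD and at 149, 232 and 206 CPM under NCD, with overlap. The 1 miRNA of this list without overlap was miR-205-5p, likewise a repressor of Zeb1 and Zeb2, at 1.56, 3.79 and 2.82 CPM under HFD and 7.12, 4.61 and 6.47 CPM under NCD (log2 fold change -1.16 ± 0.50, SE; edgeR adjusted p = 0.480), beside 15.3% of all tested miRNAs without overlap in either direction. Its levels rest on few reads. miR-203-3p and miR-205-5p are named here outside the naming rule, after their values were seen.

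The pattern over the libraries was also set beside that of all tested miRNAs outside the family with a mean of at least 10 CPM. By Pearson correlation of log2 CPM over the 6 libraries, both diets together, those most like miR-200b-3p were miR-30b-3p (0.93), miR-212-5p (0.91), miR-7a-5p (0.85), miR-543-3p (0.85) and miR-679-5p (0.85). Those most like miR-200c-3p were miR-320-3p (0.89), miR-191-5p (0.86), miR-342-3p (0.85), miR-216b-5p (0.84) and miR-7a-2-3p (0.84). The lists had no miRNA in common, and miR-216b-5p is one of the acinar markers. These are descriptions over 6 points that share their scaling factors, chosen as the highest of many.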

How the data were processed

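Total RNA of pancreatic islets was isolated on columns and made into small RNA libraries with a NEBNext kit, per the labels' protocols. The authors deposited raw read counts by mature miRNA, per the file headers, and TPM values, which scale each count by the library total to within a relative difference of 4.61e-09. Aligner, counting tool, genome build and annotation: not given in the sources used here.

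Counts were tested with edgeR 4.0.16 in R 4.3.3: filterByExpr (minimum count 10), then TMM scaling, dispersion estimation and a quasi-likelihood fit with diet as the only term, run with legacy = FALSE, and Benjamini-Hochberg adjustment over all 406 tested miRNAs. The threshold was an adjusted p of 0.05. Fold changes are HFD over NCD. DESeq2 1.42.0 and limma-voom (limma 3.58.1) were alternatives, beside other scaling factors and filters, the replicate number as a block and leaving out each library. Reads removed by the filter were at most 0.0351% of a library. A count of 0 allowed up to 0.213 to 0.445 CPM, taken as 3 counts per library, which covers counting error only.

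Ratios are log2 values with 0.5 added to each count, tested by exact two-sided permutation (SciPy 1.17.1). The edgeR steps were tested on simulated data with planted changes larger than those of the members. That test cannot tell whether changes of the members' size would be found. Chi-square per degree of freedom between libraries of 1 diet was 464 to 2277, above sampling noise. Coordinates and sequences are RefSeq's and GENCODE M21's on GRCm38, and all 9 members matched. The members and lists were chosen with earlier results of these data known. The named miRNAs were all members, miR-375-3p, up to 3 of the most abundant of a list or those passing, and the 5 most correlated with each of miR-200b-3p and miR-200c-3p. Exceptions, chosen after their values were seen, are miR-203-3p, miR-205-5p and the markers at 0 reads in a library (miR-216a-5p, miR-216a-3p, miR-144-3p and miR-133a-3p).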

Additional observations from a re-analysis of the deposited data

How the results depend on the processing

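The count of family members past the threshold was 0 under all 15 alternatives, with a lowest adjusted p of 0.229 (miR-200a-3p without NCD replicate 2). Over all tested miRNAs 1 passed, against 0 on library totals alone, 8 unfiltered and 3 with DESeq2, and leaving out 1 library gave 0 to 4 (0 without NCD replicate 1, 4 without NCD replicate 2 and 3 without NCD replicate 3). The log2 fold changes of miR-200a-3p, miR-200a-5p and miR-141-3p stayed positive and those of miR-200b-5p and miR-200c-3p negative under the 15 alternatives run for each. With library totals only, miR-200b-3p turned to -0.037, miR-429-3p to -0.14 and miR-141-5p to -0.26, where the median of all miRNAs was -0.37, and leaving out 1 library put miR-141-5p between -0.17 and 0.51. Leaving out 1 library put the difference in the ratio of miR-429-3p to miR-200b-3p between -0.24 and 0.22 and that of the family to miR-375-3p between -0.10 and 0.65, with a change of sign in each. The other 8 ratios kept their direction under their 9 alternatives, from -0.86 to -0.50 for the seed groups and from 0.53 to 1.13 for the clusters. Same-numbered libraries had deviations from their diet means with correlations of 0.17, -0.24 and 0.35, so no pairing was assumed. With the replicate number as a block the count of members past the threshold was 0, that of all miRNAs 1, and the cluster and seed group differences were 0.83 and -0.70. With 3 libraries per diet no ratio can reach an adjusted p of 0.05.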

Other observations

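Among the 3p arms, the pair that moved most alike over the libraries came from different clusters. By Pearson correlation of log2 CPM over the 6 libraries, both diets together, miR-429-3p of the chromosome 4 cluster and miR-141-3p of the chromosome 6 cluster had an r of 0.98. miR-141-3p and its neighbour miR-200c-3p had an r of 0.09, and miR-200b-3p and miR-429-3p of the same cluster had an r of 0.30. In that cluster miR-200a-3p had an r of 0.67 with miR-200b-3p and 0.74 with miR-429-3p. miR-200b-3p and miR-200c-3p, which share a seed, had an r of -0.34, and miR-429-3p and miR-200c-3p, with that seed too, had 0.07. miR-200a-3p and miR-141-3p, which share the other seed, had an r of 0.77. These values were noticed after the data were seen and are given as a description without a test. The points share their scaling factors, and pairs such as miR-141-3p and miR-200a-3p can exchange reads.

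The arms of the miR-200b hairpin did not move together over the libraries, with an r of -0.36, while those of miR-200a had 0.74 and those of miR-141 had 0.77. miR-200b-5p and miR-200a-3p had the most negative value of all 28 pairs of tested members, at -0.93. Their log2 fold changes between the diets had opposite signs, at -0.39 and 0.74, and the part of diet in this value was not tested. These values too are descriptions over 6 libraries, both diets together, without a test. miR-200b-5p was highest in NCD replicate 1, where miR-200a-3p was lowest, with 151 and 5696 CPM.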
